A study of Mus musculus with 24 samples.

Results

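The RUNX factors and their partners were followed through the chromatin marks at 7 genes: Runx1, Runx2 and Runx3, which encode the DNA-binding subunits of core-binding factor; Cbfb, which encodes their common partner; and Cbfa2t2, Cbfa2t3 and Runx1t1, which encode co-repressors of the ETO family. All peaks that overlapped one of these genes, or the 20 kb on either side of it, were taken. They numbered 43 of 23341 H3K27ac peaks in the treated list and 56 of 28902 in the untreated list, with 113 of 101388 and 127 of 119362 H3K4me1 peaks in the treated and untreated lists. The 7 genes are among 21887 protein-coding genes of the gene table.

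The cells were mouse leukaemic erythroid cells from bone marrow that carry a Spi1 transgene (TgSpi1, line 763) and overexpress SPI1, the ETS factor also called PU.1. The treated cultures received doxycycline for 48 h, which switches on a short hairpin RNA against Spi1, and the untreated cultures did not. Every culture was grown with erythropoietin and every group carries the transgene. No group is labelled as doxycycline without the hairpin, so the drug, the hairpin and a lower SPI1 level cannot be told apart, the SPI1 level was not analysed here, and the labels do not say whether line 763 is a single clone. Of 24 samples, 4 peak lists were used, 1 for each mark (H3K27ac, H3K4me1) in each condition. Each H3K27ac list stands for replicates 1 and 2 together and each H3K4me1 list for replicate 1. There is therefore no replicate error and no test for any difference below, and a mark on fewer cells cannot be told apart from a weaker mark per cell.

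RUNX proteins bind DNA through the Runt domain, and CBFβ, which does not bind DNA itself, strengthens that binding. RUNX1 is needed for the emergence of blood stem cells and works beside SPI1 in myeloid cells, RUNX2 is best known from bone and RUNX3 from T cells and neurons. ETO2, the product of Cbfa2t3, is part of complexes with TAL1, LDB1 and GATA1 in erythroid progenitors. RUNX1T1 and MTGR1, the product of Cbfa2t2, are its close relatives, and RUNX1 and RUNX1T1 are fused in a human acute myeloid leukaemia. H3K27ac marks active promoters and enhancers, and H3K4me1 marks enhancer regions whether active or not.

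RefSeq (GRCm38.p6) gave 9 transcription starts for 6 of the 7 genes. Runx1, Runx3 and Cbfa2t3 had an upstream and a downstream start, and Runx2, Cbfb and Cbfa2t2 had 1 each. The windows around the upstream starts of Runx1 and Runx3 and the only listed start of Runx2 are shown first, because these starts share a stretch of RUNX motifs but differed in H3K27ac. Each runs 5′ to 3′ from 250 bases before the start to 50 bases from it on, and capitals mark the RUNX motifs TGTGGT and TGCGGT on either strand.
Runx1, chr16:92826025-92826324, minus strand: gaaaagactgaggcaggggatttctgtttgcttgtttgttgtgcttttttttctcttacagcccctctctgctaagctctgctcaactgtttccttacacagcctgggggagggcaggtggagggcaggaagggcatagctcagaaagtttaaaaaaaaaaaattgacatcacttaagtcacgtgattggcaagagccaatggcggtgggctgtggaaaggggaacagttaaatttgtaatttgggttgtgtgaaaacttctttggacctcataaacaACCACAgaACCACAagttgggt
Runx2, chr17:44814578-44814877, minus strand: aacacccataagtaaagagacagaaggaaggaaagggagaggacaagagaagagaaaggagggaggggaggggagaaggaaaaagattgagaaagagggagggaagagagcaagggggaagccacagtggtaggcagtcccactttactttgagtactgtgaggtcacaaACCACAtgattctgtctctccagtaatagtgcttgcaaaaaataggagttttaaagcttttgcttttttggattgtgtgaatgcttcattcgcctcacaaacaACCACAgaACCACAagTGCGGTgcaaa
Runx3, chr4:135120395-135120694, plus strand: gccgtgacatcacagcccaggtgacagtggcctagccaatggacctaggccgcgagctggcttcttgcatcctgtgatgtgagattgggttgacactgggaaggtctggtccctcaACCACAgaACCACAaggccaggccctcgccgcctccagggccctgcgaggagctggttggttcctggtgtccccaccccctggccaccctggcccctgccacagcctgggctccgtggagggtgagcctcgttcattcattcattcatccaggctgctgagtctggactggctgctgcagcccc
The longest stretch common to these windows was 18 bases long and held both copies of the motif: caACCACAgaACCACAag. Its leading base lay at position 27 at Runx1 and 22 at Runx2, counted from 1 at the start, and at -136 at Runx3. Only 4 of 32851 RefSeq promoter windows held these letters on either strand, those of the 3 genes and that of Gm16225, a long non-coding RNA whose window overlaps that of Runx3 on the other strand. The Runx1 window had 2 RUNX matches, the Runx2 window 4 and the upstream Runx3 window 2, the upstream Cbfa2t3 window 1, and the other 5 windows 0. Of all promoter windows, 22.4% held at least 1 match.

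The upstream start of Cbfa2t3 is shown because the widest H3K27ac peak of the 7 genes lay over it. Capitals here mark AGGAAG on either strand, a motif of ETS factors such as SPI1, which contains the general ETS core GGAA.
Cbfa2t3, chr8:122699060-122699359, minus strand: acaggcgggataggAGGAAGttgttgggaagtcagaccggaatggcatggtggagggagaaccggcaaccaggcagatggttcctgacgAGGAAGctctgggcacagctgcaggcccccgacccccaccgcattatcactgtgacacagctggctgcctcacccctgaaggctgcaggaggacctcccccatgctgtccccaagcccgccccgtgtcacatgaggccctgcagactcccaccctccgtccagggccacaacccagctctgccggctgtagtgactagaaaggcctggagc
This window held 2 AGGAAG matches, as did that of Cbfb, and the upstream Runx1 window and the Runx2 window held 1 each. The remaining 5 windows held 0. The background was 35.4% of promoter windows for AGGAAG and 96.0% for GGAA. A GATA motif (AGATAA or TGATAA, either strand) was found in 18.6% of promoter windows and at 1 of the 9 starts, the upstream start of Cbfa2t3. These matches describe the letters in the windows and are no evidence of binding.

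The labelled cell type was checked on lists of marker genes. H3K27ac within 1 kb of an annotated gene end was found at 11 of 12 erythroid genes in the treated list and 8 of 12 in the untreated list. Ank1 lacked it in both, and Alas2, Hba-a1 and Slc4a1 lacked it in the untreated list. It was found at 2 and 3 of 12 myeloid genes, 5 and 4 of 6 megakaryocyte genes, 2 and 2 of 6 B cell genes and 0 and 0 of 6 T cell genes in the treated and untreated lists. The myeloid genes with it were Ccr2 and Cd14 in both lists and Fcgr1 in the untreated list, and the other 9 had none in either. The share of all genes with H3K27ac within 1 kb of an end was not counted, and a peak of a neighbouring gene can count. The part of this marker difference in the results below was not tested. Median peak widths over the whole lists were 1353 bp treated and 1003 bp untreated for H3K27ac, and 1153 bp and 903 bp for H3K4me1. At the 7 genes they were 1703 bp treated and 1028 bp untreated for H3K27ac, and 1253 bp and 1203 bp for H3K4me1.

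Runx1 and Cbfa2t3 carried most of the H3K27ac and H3K4me1 of the 7 genes in both conditions, and Runx1t1 carried none. The length covered by peaks within the gene and 20 kb either side, the covered length, was longer in the treated list at 4 genes for each mark. For H3K27ac these were Runx1, Runx2, Runx3 and Cbfa2t3, and for H3K4me1 Runx1, Runx2, Cbfa2t2 and Cbfa2t3. The sums over the 7 genes were 97165 bp treated and 85199 bp untreated for H3K27ac and 334850 bp and 314019 bp for H3K4me1. Covered length follows how much was called in a list and not the height of the signal, and read depth is unknown.

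Of the 6 genes with H3K27ac peaks, 4 were longer and 2 shorter in the treated list. Over all 13830 genes with a peak in their window, 46.4% were longer and 51.7% shorter. In H3K4me1 the 6 genes again split into 4 and 2, while 61.8% of 17533 genes were longer and 37.9% shorter. The median difference over the 7 genes, treated minus untreated, was 1700 bp in H3K27ac and 5906 bp in H3K4me1, and over all genes, those without peaks included, it was 0 bp in both marks. The all-gene mean difference was -29.2 bp in H3K27ac and 746 bp in H3K4me1, against means of 1709 bp and 2976 bp over the 7 genes. Their median H3K4me1 length was 34819 bp treated and 27160 bp untreated, against 9771 bp and 9227 bp over all genes. Both medians over the 7 genes are the lengths of Runx2, in a window of 358.8 kb. Per kb of window Runx2 stood at the 43.0 percentile of genes treated and the 40.2 percentile untreated for H3K4me1. The lengths and differences in bp given here are not corrected for window length. The H3K4me1 sums at the 7 genes stood in a ratio of 1.07, treated to untreated, against 1.06 for the whole lists. The whole H3K27ac lists covered 41.2 Mb treated and 41.5 Mb untreated. Neighbouring genes share peaks in these windows. A difference of at least 1.5 times and at least 1000 bp was seen at 1 of the 6 genes, Runx2, whose H3K27ac was longer in the treated list. The background for that size was 7.93% of genes longer and 8.95% shorter in H3K27ac, and 7.53% longer and 4.45% shorter in H3K4me1, where 0 of the 6 genes reached it in either direction.

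**Figure D1:**
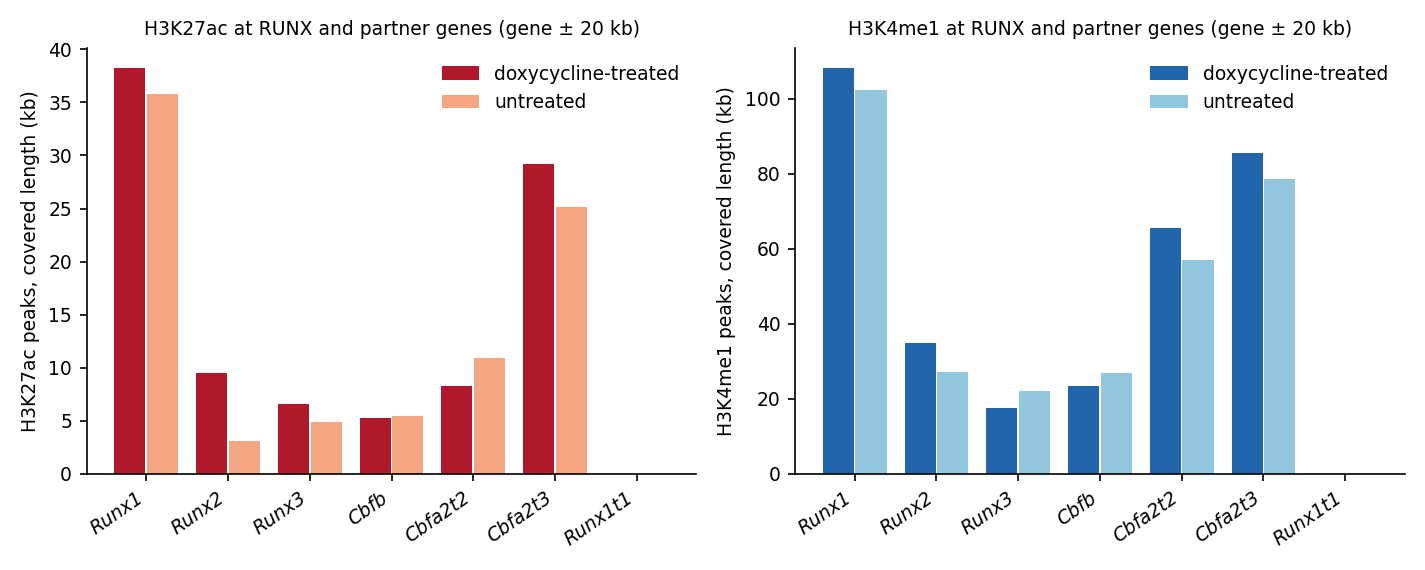
Covered length (kb) of H3K27ac (left) and H3K4me1 (right) peaks within each gene and 20 kb either side, with the treated list left of the untreated list; 1 list per bar, so no error bars. Runx1 (38236 bp treated, 35754 bp untreated) and Cbfa2t3 (29214 bp and 25129 bp) had the longest H3K27ac, and Runx1t1 had no peak.

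Runx1, the RUNX gene of blood formation, lies at chr16:92601466-92826074 on the minus strand. Its H3K27ac peaks covered 38236 bp in the treated list and 35754 bp in the untreated list, in 12 and 18 peaks. H3K4me1 covered 108119 bp and 102213 bp, in 23 and 21 peaks. These lengths placed Runx1 at rank 14 treated and 21 untreated of all genes for H3K27ac, and at rank 32 and 40 for H3K4me1. Per kb of window it stood at the 89.6 percentile of genes treated and the 88.3 percentile untreated for H3K27ac, in a window of 264.6 kb. For H3K4me1 it stood at the 86.7 percentile treated and the 87.0 percentile untreated. Both directions turned under 1 alternative: with 50 kb either side the H3K27ac difference was -171 bp, and the H3K4me1 difference was -423 bp once both lists were scaled to the same total length.

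Both starts of Runx1 lay inside H3K27ac peaks in both lists. The acetylation was concentrated between them: of the 128.7 kb from the upstream to the downstream start, H3K27ac covered 27.1% treated and 25.4% untreated, and H3K4me1 67.6% and 64.2%. From the downstream start to the far end of the gene, 95.9 kb, H3K27ac covered 2.43% and 2.22%, and H3K4me1 18.0% and 16.9%. The last H3K27ac peak ended 131.1 kb below the upstream start in the treated list and 130.9 kb in the untreated list.

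Over the upstream start, the treated list had 1 peak of 9653 bp (chr16:92817399-92827051) where the untreated list had 3, of 3403, 1003 and 4703 bp. The gaps between those were 197 and 347 bp, and 197 bp was the smallest gap in each of the 4 lists. The outer edges were identical on both sides, so the stretch is the same and is reported as joined in the treated list. The peak over the downstream start was 4003 bp treated and 3703 bp untreated. Further joined stretches lay between the starts, where a blood enhancer of Runx1 is known in mouse. The treated peak centred 24.5 kb below the upstream start, 7453 bp wide, met untreated peaks of 6503 and 353 bp. Those at 62.5 kb and 113.9 kb, 4803 and 3903 bp wide, each met 3 untreated peaks, of 353, 1553 and 1553 bp and of 503, 2103 and 703 bp. The peak at 62.5 kb also covers the start of Gm30281, a gene inside Runx1, and the lists cannot assign it to either gene.

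Peaks of a single condition were narrow at Runx1. In H3K27ac they were 3 of 12 treated and 2 of 18 untreated peaks, against 17.1% and 27.4% of the whole lists. The treated list alone held H3K27ac peaks of 653, 253 and 103 bp, at 20.0, 81.9 and 19.1 kb below the upstream start, and the one of 653 bp lay 298 bp from an untreated peak. The untreated list alone held peaks of 803 and 553 bp, at 101.5 and 11.8 kb. In H3K4me1, 4 of 23 treated peaks, of 453 to 903 bp, and 0 of 21 untreated peaks were found in 1 list alone. The shares of the whole H3K4me1 lists were 20.8% treated and 26.7% untreated. The widest H3K4me1 peak of the 7 genes lay here, 26603 bp treated (chr16:92781549-92808151) and 26453 bp untreated (chr16:92781449-92807901), at width rank 65 of the treated list and 33 of the untreated list. It was centred 31.2 kb (treated) and 31.4 kb (untreated) below the upstream start, and overlapped 5 treated and 4 untreated H3K27ac peaks.

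**Figure D2:**
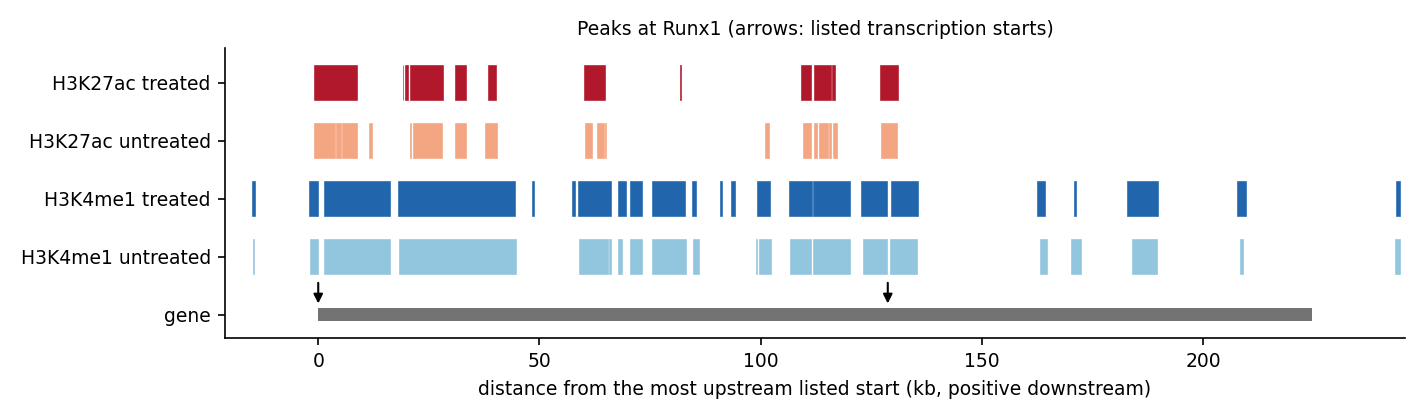
Peaks at Runx1 in the 4 lists, treated above untreated for each mark, by distance from the upstream start (kb, positive in the direction of transcription); the grey bar is the gene and the arrows are its listed starts. H3K27ac ends 131.1 kb (treated) and 130.9 kb (untreated) below the upstream start in a gene of 224.6 kb, and the peak over that start is undivided in the treated list and split into 3 in the untreated list.

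Runx2, the RUNX gene of bone, lies at chr17:44495987-44814797 on the minus strand. It had 9518 bp of H3K27ac in 6 treated peaks and 3112 bp in 4 untreated peaks, a ratio of 3.06, and 34819 bp and 27160 bp of H3K4me1. Its only listed start lay in no peak of either mark. The nearest H3K27ac peak was 11572 bp away in the treated list and 36276 bp away in the untreated list. The difference came from the flank: within the gene, H3K27ac covered 3859 bp treated and 3112 bp untreated, and in the 20 kb above the start 5659 bp and 0 bp.

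The upstream acetylation in the treated list consisted of peaks of 4603 bp (chr17:44826199-44830801), 403 bp and 653 bp, centred 13.9 to 17.6 kb above the start and inside Supt3, a gene that overlaps Runx2 and encodes a subunit of the SAGA complex. The nearest untreated H3K27ac lay 47848 bp from the widest of them. H3K4me1 was present there in both lists, as a treated peak of 7653 bp that met untreated peaks of 5703 and 403 bp. Inside Runx2, treated-only peaks of 1203 and 953 bp lay 143.0 and 141.7 kb below the start, again on H3K4me1 of both lists. Untreated-only peaks of 553, 253 and 353 bp lay at 200.6, 173.8 and 160.4 kb. A single H3K27ac peak was shared, 1703 bp treated and 1953 bp untreated, and it covered the start of Supt3. With the gene body alone or 5 kb either side, the Runx2 difference was 747 bp, below the size used for calls.

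Runx3 lies at chr4:135120645-135177990 on the plus strand and had 3 H3K27ac peaks in each list, covering 6559 bp treated and 4859 bp untreated. All were shared. The peak over the downstream start was 2003 bp treated and 2053 bp untreated. A peak 47.0 kb below the upstream start was 2503 bp treated and 2553 bp untreated, close to equal like the one over the start. The peak at 50.9 kb accounted for the difference, with 2053 bp treated and 253 bp untreated. The upstream start had no H3K27ac within 31404 bp treated and 31504 bp untreated.

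H3K4me1 at Runx3 was shorter in the treated list, 17583 bp in 11 peaks against 22078 bp in 13 peaks untreated. With the top 50% of each list by score the difference was -8218 bp, past the call size. The upstream start was 8054 bp from the nearest treated H3K4me1 peak and lay inside an untreated one of 353 bp. The 2 treated-only peaks were 603 bp each, at 13.2 and 68.3 kb below that start. Untreated-only peaks numbered 4, and the wider ones, of 1053 and 1753 bp, lay beyond the far end of the gene at 58.3 and 60.7 kb. Over the whole lists, 20.8% of treated and 26.7% of untreated H3K4me1 peaks were found in 1 list alone.

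Cbfb, which encodes the non-DNA-binding partner CBFβ, lies at chr8:105170674-105217989 on the plus strand. Its H3K27ac was nearly the same in both lists, 5309 bp treated and 5459 bp untreated, in 3 peaks each. The peak over its start was 1903 bp treated and 2553 bp untreated, reaching 1027 bp and 1877 bp into the gene. A peak of 2653 bp treated and 2053 bp untreated lay at 54.7 kb and covered the start of the neighbour D230025D16Rik. Single-condition peaks of 753 bp treated and 853 bp untreated lay 39.4 and 37.5 kb below the start, 1148 bp apart and within 1 H3K4me1 peak of each list. H3K4me1 covered 23414 bp treated and 26932 bp untreated. It had 13 treated and 23 untreated peaks, and 9 of the untreated ones, of 303 to 853 bp, had no treated counterpart. Of the treated ones, 1 had no untreated counterpart. Over the whole H3K4me1 lists, 26.7% of untreated and 20.8% of treated peaks had no counterpart.

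Cbfa2t2 (chr2:154436098-154539356, plus strand) had the largest H3K27ac difference of the 7 toward the untreated list, 8329 bp treated against 10886 bp untreated, while its H3K4me1 was longer, 65383 bp and 56942 bp. Its start lay in an H3K27ac peak of 1453 bp treated and 1203 bp untreated. Treated-only H3K27ac peaks of 753, 553 and 703 bp lay at -4.3, 71.2 and 72.4 kb from it. In the untreated list alone, 4 H3K27ac peaks of 203, 1103, 903 and 453 bp lay 17.4 to 27.9 kb below the start. The nearest treated H3K27ac was 16048 to 26448 bp from them. All 4 sat inside a broad H3K4me1 peak that was 14253 bp treated (chr2:154452149-154466401) and 13903 bp untreated (chr2:154452599-154466501). The treated peak overlapped 0 treated and 4 untreated H3K27ac peaks. Further untreated-only H3K27ac peaks of 653, 503 and 303 bp lay at 86.3, 101.9 and 102.6 kb. Shared peaks at 116.4 and 122.1 kb overlap the neighbour Necab3. Over the gene body alone the lengths were 3462 bp treated and 6377 bp untreated, a difference of the size used for calls.

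Cbfa2t3, which encodes ETO2 (chr8:122625136-122699332, minus strand), was the most densely marked of the 7. H3K4me1 covered 74.9% of its window treated and 68.9% untreated, at the 99.6 and 99.5 percentiles of genes per kb. H3K27ac covered 25.6% and 22.0%, at the 97.4 and 95.9 percentiles. The lengths were 29214 bp treated and 25129 bp untreated for H3K27ac, and 85532 bp and 78694 bp for H3K4me1. There were 11 treated and 16 untreated H3K27ac peaks, so acetylation was longer in fewer peaks, as at Runx1. The whole treated list also held fewer and wider peaks, 23341 against 28902, with median widths of 1353 and 1003 bp. With peaks within 1 kb merged, the treated list was longer by 1306 bp at Cbfa2t3 and 1494 bp at Runx1.

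The upstream start of Cbfa2t3 lay in a treated H3K27ac peak of 12403 bp (chr8:122690649-122703051), at width rank 33 of 23341. It met 3 untreated peaks of 2053, 7603 and 2503 bp, separated by gaps of 597 and 197 bp. A second stretch centred 12.2 kb below this start was 4903 bp treated and met untreated peaks of 353, 1853 and 1803 bp. Between the starts, 20.9 kb apart, H3K27ac covered 63.8% treated and 57.4% untreated. The downstream start lay in no H3K27ac peak, with the nearest 6324 bp away treated and 6924 bp untreated. It sat between broad H3K4me1 peaks of 23953 and 18853 bp treated, and 24403 and 18353 bp untreated, 74 bp from the nearest treated peak and 124 bp from the nearest untreated one. Treated-only H3K27ac peaks of 553 and 1003 bp lay beyond the far end of the gene, near Pabpn1l. An untreated-only peak of 503 bp lay 15.2 kb above the upstream start, 298 bp from a treated peak. The upstream peak also covers the start of Gm10612, and the lists do not separate these genes.

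**Figure D3:**
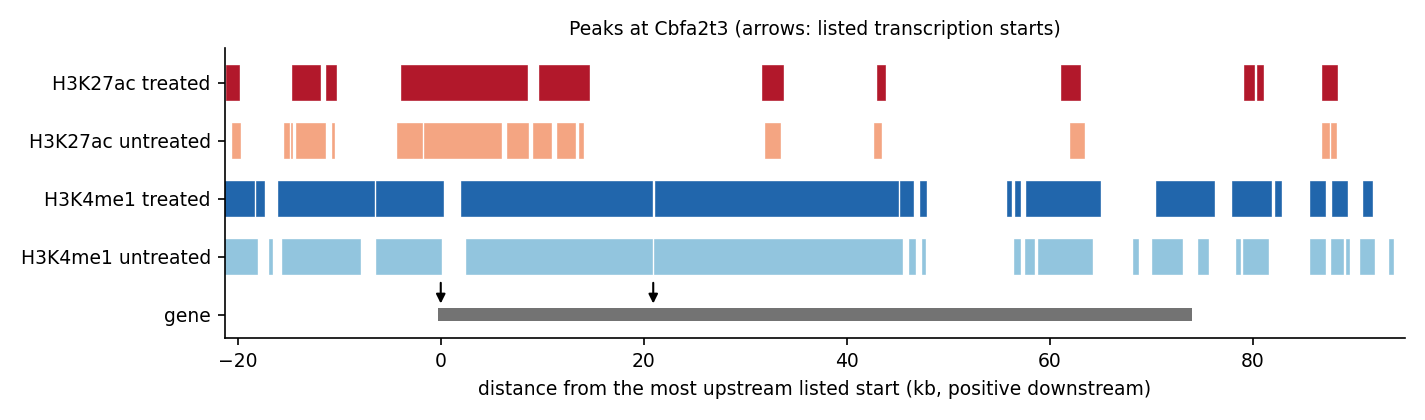
Peaks at Cbfa2t3 in the 4 lists, treated above untreated for each mark, by distance from the upstream start (kb, positive in the direction of transcription); the grey bar is the gene and the arrows are its listed starts. The treated H3K27ac peak of 12403 bp over the upstream start faces 3 untreated peaks, and no H3K27ac lies over the downstream start.

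Runx1t1 (chr4:13742628-13895056), the relative of Cbfa2t2 and Cbfa2t3 that is fused to RUNX1 in leukaemia, had no peak of either mark in either list in its window of 192.4 kb. No H3K27ac peak was present in either list for 36.8% of protein-coding genes, and no H3K4me1 peak for 19.9%.

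**Figure D4:**
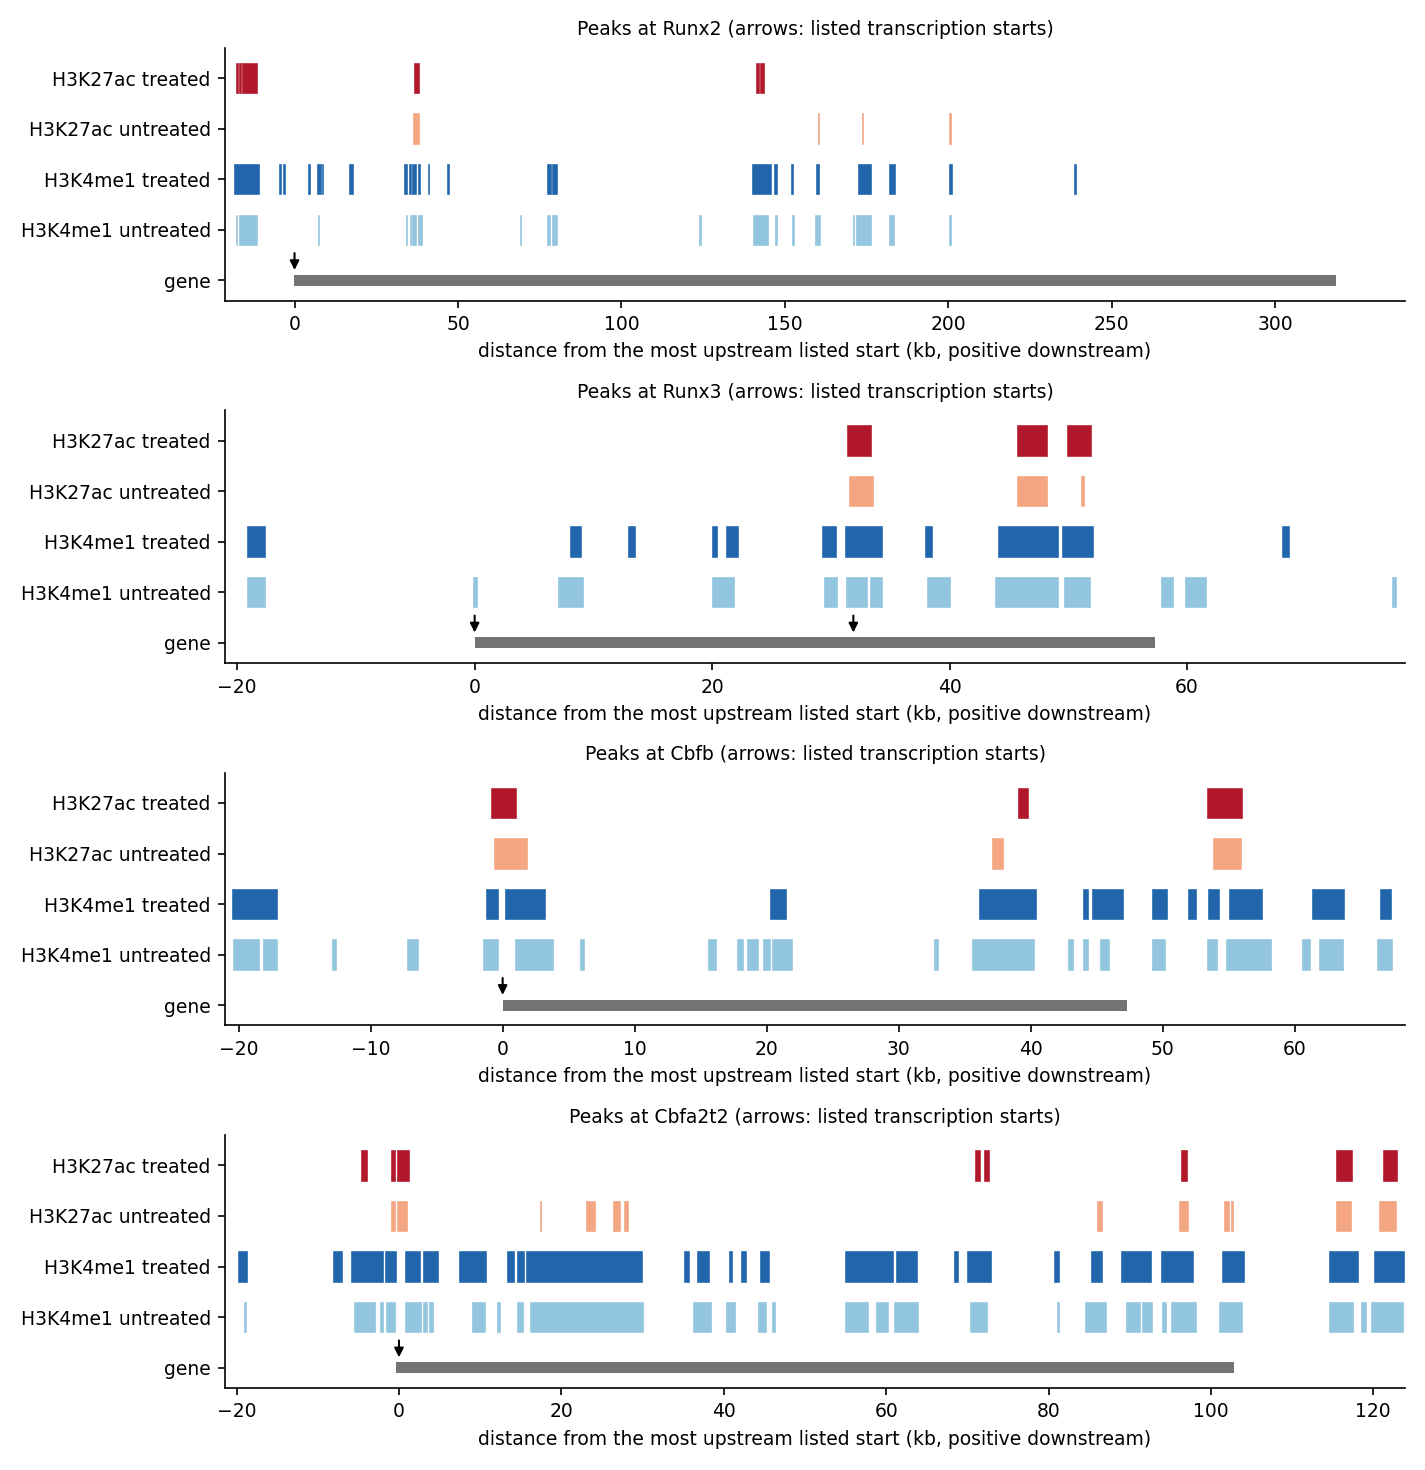
Peaks at Runx2, Runx3, Cbfb and Cbfa2t2 in the 4 lists, treated above untreated for each mark, by distance from the most upstream listed start (kb, positive in the direction of transcription); grey bars are genes and arrows are listed starts. Treated H3K27ac of 4603 bp above Runx2 and 4 untreated H3K27ac peaks 17.4 to 27.9 kb inside Cbfa2t2 have no counterpart in the other condition, although H3K4me1 is present in both.

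Across the 9 listed starts, H3K27ac covered the same 6 in both lists: both starts of Runx1, the downstream start of Runx3, the upstream start of Cbfa2t3 and the starts of Cbfb and Cbfa2t2. The starts without it in either list were the upstream start of Runx3, the downstream start of Cbfa2t3 and the start of Runx2. Of all 32851 listed starts, 31.8% lay in a treated and 30.4% in an untreated H3K27ac peak. H3K4me1 covered 3 starts in each list, against 20.9% and 18.5% of all starts. The upstream start of Runx1 was covered in the treated list, where the peak ended 25 bp inside the gene, and missed by 25 bp in the untreated list.

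Of treated H3K27ac peaks at the 7 genes, 14 of 43 were found in the treated list alone, 32.6% (exact 95% interval 19.1 to 48.5%), against 17.1% of the whole list. Of untreated ones, 14 of 56 were found in the untreated list alone, 25.0% (14.4 to 38.4%), against 27.4%. Runx2 held 5 of the 14 treated-only peaks and Cbfa2t2 held 7 of the 14 untreated-only peaks. In H3K4me1 the shares were 22 of 113 treated peaks, 19.5% (12.6 to 28.0%), against 20.8%, and 22 of 127 untreated peaks, 17.3% (11.2 to 25.0%), against 26.7%. These intervals hold counting error alone, and neighbouring peaks of a gene are not independent. Among the top 50% of each H3K27ac list by width, the treated share at the 7 genes was 12.5% (3 of 24 peaks), against 13.2% of those list peaks, so the treated excess over the list was not seen there. The untreated share was 7.14% (2 of 28), against 27.4%. With a reciprocal overlap of 50% the shares were 48.8% of treated and 60.7% of untreated peaks, against 38.2% and 50.1% of the lists.

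The single-condition H3K27ac peaks all lay on H3K4me1 that was also present in the other condition. This held for 14 of 14 treated-only peaks, against 94.4% of all such peaks, and for 14 of 14 untreated-only peaks, against 96.4%. All 43 treated and all 56 untreated H3K27ac peaks overlapped H3K4me1 of their own condition, against 99.5% and 99.0% of the lists. Of the H3K4me1 peaks found in 1 condition alone, 0 of 22 treated and 0 of 22 untreated ones overlapped H3K27ac of either condition, against 0.437% and 0.553%. These shares are near the background and are no result about the 7 genes.

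Treated peaks that met at least 2 untreated peaks were found at Runx1 and Cbfa2t3 in H3K27ac, and at all 6 genes with peaks in H3K4me1. An overlap of 1 bp counts here, so not every case is a joined stretch. At Cbfa2t3, a treated H3K4me1 peak of 1253 bp met untreated peaks of 603 and 24403 bp. A treated H3K27ac peak of 2803 bp there met untreated peaks of 2853 and 103 bp. Of treated H3K27ac peaks, 9 of 43 overlapped at least 2 untreated peaks, 20.9% (10.0 to 36.0%), against 10.8% of the list, 4 of them at Runx1 and 5 at Cbfa2t3. Among those at Cbfa2t3, the peak of 1453 bp centred 87.5 kb below the upstream start covered the start of the neighbour Trappc2l. Treated H3K27ac peaks at the 7 genes were wider than the list, median 1703 against 1353 bp, and the share is not corrected for width. Of untreated peaks, 0 of 56 overlapped at least 2 treated ones (up to 6.38%), against 3.99%. In H3K4me1, 17 of 113 treated peaks overlapped at least 2 untreated ones, 15.0% (9.01 to 23.0%), against 9.88%, 5 each at Cbfa2t2 and Cbfa2t3, 2 each at Runx1, Runx2 and Cbfb and 1 at Runx3. In the other direction 3 of 127 untreated peaks did, 2.36% (0.490 to 6.75%), against 3.84%.

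**Figure D5:**
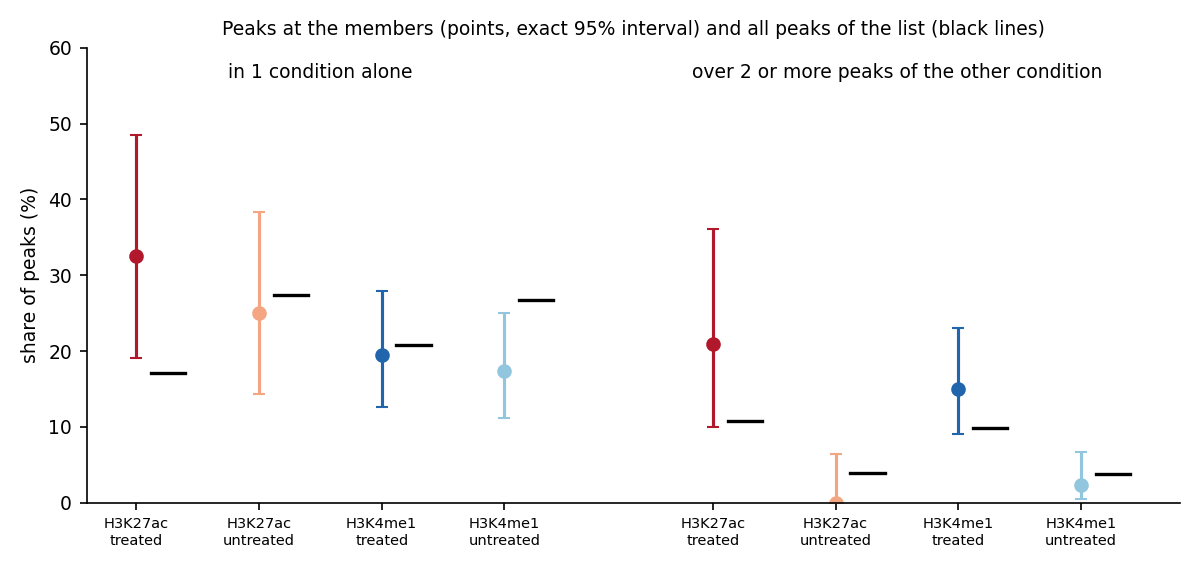
Share (%) of the peaks at the 7 genes found in 1 condition alone (left) and overlapping at least 2 peaks of the other condition (right), treated left of untreated for each mark; points are the 7 genes with exact 95% intervals over peaks, and black lines are all peaks of the same list. The treated H3K27ac points stand at 32.6% and 20.9%, against 17.1% and 10.8% of the list.

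A list of 40 genes for proteins that work with RUNX factors was described with the same windows. In H3K27ac, 36 had a peak, 17 were longer and 18 shorter in the treated list (all genes with a peak, 46.4% and 51.7%). The median difference over all 40, those without a peak included, was 0 bp. Past the call size, 0 were longer and 3 shorter, against 7.93% and 8.95% of genes. Among the shorter, Tcf12, an E protein of the ETO2 and TAL1 complexes, had 11021 bp treated and 22033 bp untreated, and Hdac3, the deacetylase of the NCoR complex, had 11883 bp and 18562 bp. In H3K4me1, 39 had a peak, 26 were longer and 13 shorter (61.8% and 37.9% of genes). The median difference over all 40 was 1175 bp. Past the size, 1 was longer and 1 shorter, against 7.53% and 4.45%. Yap1, a transcriptional co-activator, had 23551 bp treated and 8680 bp untreated, and Cebpa, a myeloid factor, had no peak treated and 1156 bp untreated.

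Of 36 known RUNX target genes, 35 matched the gene table and Tcra did not. In H3K27ac, 28 had a peak, 17 were longer and 10 shorter (all genes with a peak, 46.4% and 51.7%). The median difference over all 35, those without a peak included, was 0 bp. Past the call size, 3 were longer and 1 shorter, against 7.93% and 8.95% of genes. Pf4, a platelet chemokine gene, had 13518 bp treated and 7871 bp untreated. Socs3, whose product dampens cytokine signalling, had 10303 bp treated and 5997 bp untreated. Gzmb, a granzyme of cytotoxic lymphocytes, had no peak treated and 1306 bp untreated. In H3K4me1, 34 had a peak, 15 were longer and 19 shorter (61.8% and 37.9% of genes). The median difference over all 35 was -162 bp. Past the size, 1 was longer and 4 shorter, against 7.53% and 4.45%. Bcl2l11, which encodes the pro-apoptotic protein BIM, had 47097 bp treated and 28145 bp untreated. The neighbouring cytokine genes Csf2 and Il3, which share peaks, had 9421 bp and 9021 bp treated, and 15881 bp and 13880 bp untreated.

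Genes with the most similar marks were found by the distance over the 4 lists in log2 of covered bp per kb of window plus 1, which describes likeness and nothing more. The closest to Runx1 were Ppp1r37, Qars and Cldn15, at distances of 0.09, 0.10 and 0.10. Those closest to Cbfb were Taok1, S1pr2 and Rnf157, at 0.10, 0.10 and 0.11. Cbfa2t3 was closest to Ly6g6d and Vkorc1l1, at 0.08 and 0.13, and to Ly6g6e, a neighbour of Ly6g6d, at 0.18.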

How the data were processed

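Reads went through bcl2fastq 2.17.1.14 and BWA on mm10, per the submitters' processing notes. Not given in the sources used here are the peak caller and the way H3K27ac replicates were combined. The 4 deposited lists hold peak positions. Those of H3K4me1 also hold a score for each peak, made by the authors on an unstated scale, and it served only to rank peaks within a list. Positions were taken as 1-based, both ends inclusive. Read depth is unknown because the lists hold no counts.

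Genes and starts came from RefSeq tables for GRCm38.p6, which is mm10. Covered length is the union of peaks inside a gene and 20 kb either side. A peak was shared from 1 bp of overlap, and shares carry Clopper-Pearson 95% intervals. The scripts used scipy 1.17.1, pandas 2.3.3 and numpy 2.4.6 under Python 3.11.15, with matplotlib 3.10.9 for figures. They were run on the untreated lists with peaks added at genes that had none, each past the call size by construction. Counts of peaks without overlap were checked against bedtools 2.31.1. The 7 genes, the lists, the motifs and the naming rule were chosen with earlier results of these data known. The rule named all 7 genes with their widest and single-condition peaks, from each gene list the 2 genes of largest difference in each direction past the call size, and the 3 most similar genes of Runx1, Cbfb and Cbfa2t3. The other samples were not analysed here.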

Additional observations from a re-analysis of the deposited data

How the results depend on the processing

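The count of genes with longer treated length was 4 in each mark and stayed between 3 and 4 under every alternative run: windows of 5 or 50 kb or the gene body alone, the top 50% of each list by width (H3K27ac) or score (H3K4me1), equal peak numbers, peaks of at least 200 bp, peaks within 1 kb merged, scaled lengths, and, chosen after seeing the data, without stretches over the start of another protein-coding gene. Runx1 H3K27ac was -171 bp with windows of 50 kb, and Runx1 H3K4me1 -423 bp when treated lengths were scaled to the untreated total. The other genes kept their direction in each of the 9 settings, but not the size of the difference. Runx3 H3K27ac, 1700 bp in the main setting, ran from 97 bp (windows of 50 kb) to 1953 bp. Cbfa2t3 H3K27ac, 4085 bp, ran from 1306 bp (peaks within 1 kb merged) to 4794 bp. Cbfb H3K27ac, -150 bp, ran from -2559 to -50 bp. Runx2 H3K27ac was past the call size in 7 of 9 settings.

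Shares of peaks found in 1 condition moved with 2 settings. With the top 50% of each list they were 12.5% of treated and 7.14% of untreated H3K27ac peaks, against 13.2% and 27.4% of all peaks at that setting, and 11.5% of treated H3K4me1 peaks, against 12.6%. With a reciprocal overlap of 50% they were 48.8% and 60.7% of treated and untreated H3K27ac peaks, against 38.2% and 50.1% of all peaks, and 38.1% and 44.9% of H3K4me1 peaks, against 41.6% and 50.4%. The cause was not tested. No paired analysis was possible because each mark and condition has 1 peak list. Depth is unknown and limits every width and number of peaks.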

Other observations

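3 broad H3K4me1 peaks of Runx1 were ranked alike by width and by the authors' score in the treated list and far lower by score than by width in the untreated list. In the treated list, those of 14853, 8253 and 7503 bp stood at width ranks 466, 2399 and 3020 and score ranks 412, 2108 and 2811. In the untreated list, the peak at chr16:92809799-92824751, 14953 bp wide, stood at width rank 291 and score rank 1520. That at chr16:92705799-92714151, 8353 bp wide, stood at 1579 and 7037, and that at chr16:92742949-92750701, 7753 bp wide, at 1921 and 6521. The widest Runx1 peak did not show this, with width rank 65 and score rank 51 in the treated list and 33 and 30 in the untreated list. Nor did untreated Runx1 peaks of 6603, 6103 and 5503 bp, at width ranks 2961, 3570 and 4479 and score ranks 2692, 3269 and 4389. These are ranks within lists of different length and show no change between conditions. Lower ranks by score than by width also occurred in the treated list, with a proportionally smaller gap. At Cbfa2t2, treated peaks of 1903 and 3303 bp stood at width ranks 30703 and 14354 and score ranks 56111 and 20674. How often peaks of the whole list have such a gap between ranks was not counted.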
